A study of Mus musculus with 11 samples.

Results

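The 6 genes described here are the mitochondrially encoded subunits of respiratory complexes III, IV and V: mt-Cytb, mt-Co1, mt-Co2, mt-Co3, mt-Atp6 and mt-Atp8. They were picked by symbol, through their Ensembl gene identifiers, from the 21899 genes of the expression table, and all 6 are listed in it. Their RNA was followed in airway of young adult male wild-type BALB/c mice. PBS mice (3 libraries) were not sensitized and were given sterile PBS. OVA/LPS/Vehicle mice (4 libraries) were sensitized with ovalbumin in alum, challenged with intranasal ovalbumin, given intranasal LPS and then a vehicle by the intratracheal route. OVA/LPS/GGsTop mice (4 libraries) had the same course with GGsTop, an inhibitor of γ-glutamyl transferase, in place of the vehicle. Since no library comes from mice given GGsTop alone, a GGsTop effect can be read only on top of ovalbumin and LPS. The OVA/LPS/Vehicle libraries carry the labels 12, 34, 56 and 78 and the others are numbered from 1, and whether the paired digits stand for pooled mice is not stated. The labels name trachea as the tissue, whereas the study's methods describe bluntly dissected airway from which the trachea was left out. No label says that the libraries of a group come from separate mice, so p-values measure the spread between these libraries.

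Mitochondrial DNA is a small circle that encodes 13 proteins, all of them parts of the respiratory chain or ATP synthase. It is transcribed from both strands into long RNAs, which are cut, mostly at tRNAs, into shorter RNAs. Most of the mRNAs among them receive a short poly(A) tail. Cytochrome b (mt-Cytb) carries the b-type haems of complex III, which passes electrons from ubiquinol to cytochrome c. The proteins of mt-Co1, mt-Co2 and mt-Co3 form the core of complex IV, cytochrome c oxidase, where oxygen is reduced to water. The proteins of mt-Atp6 and mt-Atp8 belong to the membrane part of complex V, ATP synthase, and ATP6 lines the proton path. The other subunits of these complexes are encoded in the nucleus, and airway ciliated cells and smooth muscle draw on the ATP that the chain supplies.

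In the GENCODE M21 annotation of GRCm38, mt-Co1 lies at chrM:5328-6872, mt-Co2 at chrM:7013-7696, mt-Atp8 at chrM:7766-7969, mt-Atp6 at chrM:7927-8607, mt-Co3 at chrM:8607-9390 and mt-Cytb at chrM:14145-15288. All 6 are on the plus strand, and each is a single exon. The submitters' processing notes name mm39, so these positions belong to the annotation and not to the files. The last 43 bases of mt-Atp8 are also the first 43 of mt-Atp6, and mt-Atp6 and mt-Co3 share 1 base. Outside the members, mt-Nd4l and mt-Nd4 share 7 bases, and mt-Nd5 and mt-Nd6, on opposite strands, share 14. Genes that overlap need not have separate mRNAs, so the word mRNA stands here for the annotated gene and its value. How fragments over shared bases were assigned is not given in the sources used here.

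The nuclear genome carries copies of mitochondrial DNA, and for 3 of the 6 genes the copy is letter for letter the same as the gene. On chromosome 1, a block of 4663 bases (chr1:24611535-24616197, GRCm38) holds 7 annotated copies. Among them, Gm28661 matched mt-Co2 at 100% over 681 bases, Gm10925 matched mt-Atp6 at 100% over 678 bases, and Gm28437 matched mt-Co3 at 100% over 783 bases. For mt-Co1 the block holds the last 483 bases, as Gm29216, with 1 mismatch, and Gm13340 on chromosome 2 matched all 1545 bases at 97.6% with 37 mismatches. Only Gm11410 on chromosome 4 matched mt-Cytb, at 92.9% over 1142 bases with 81 mismatches. No annotated copy matched mt-Atp8, but 233 bases lie between Gm10925 and Gm28661 on chromosome 1, the same number as between the matched parts of mt-Co2 and mt-Atp6 in mitochondrial DNA. The stretches printed here, each of 60 bases of a gene with the same part of its copy, show which members a read could and could not be told apart from the nucleus. Capitals mark positions that differ between the gene and the copy, and stretches without capitals are identical.
mt-Co2 (chrM:7313-7372, plus strand): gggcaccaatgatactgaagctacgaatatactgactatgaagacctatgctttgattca
Gm28661 (chr1:24615206-24615265, minus strand): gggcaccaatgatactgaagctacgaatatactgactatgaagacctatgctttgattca
mt-Atp6 (chrM:8227-8286, plus strand): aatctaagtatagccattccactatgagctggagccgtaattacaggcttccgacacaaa
Gm10925 (chr1:24614292-24614351, minus strand): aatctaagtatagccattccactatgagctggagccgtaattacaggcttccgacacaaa
mt-Co3 (chrM:8907-8966, plus strand): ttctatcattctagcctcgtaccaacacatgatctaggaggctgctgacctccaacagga
Gm28437 (chr1:24613612-24613671, minus strand): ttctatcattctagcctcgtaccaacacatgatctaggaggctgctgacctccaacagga
mt-Co1 (chrM:5628-5687, plus strand): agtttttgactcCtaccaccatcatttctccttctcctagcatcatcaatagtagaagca
Gm13340 (chr2:22589288-22589347, minus strand): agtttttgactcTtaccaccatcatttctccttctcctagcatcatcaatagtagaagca
mt-Cytb (chrM:14445-14504, plus strand): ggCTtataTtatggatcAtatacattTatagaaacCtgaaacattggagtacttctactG
Gm11410 (chr4:80004289-80004348, plus strand): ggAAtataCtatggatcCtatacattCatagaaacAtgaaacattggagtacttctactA

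The whole of mt-Atp8 is 204 bases long and is given because it is the shortest member and ends inside mt-Atp6. Capitals mark the 43 bases that both genes share.
mt-Atp8 (chrM:7766-7969, plus strand): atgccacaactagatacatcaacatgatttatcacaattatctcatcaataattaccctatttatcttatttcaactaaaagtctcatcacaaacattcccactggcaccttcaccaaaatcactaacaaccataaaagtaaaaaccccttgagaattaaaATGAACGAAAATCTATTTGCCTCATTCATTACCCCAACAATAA

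The deposited values are FPKM, in which fragments are scaled to exon length and to the size of the library, so that levels of different genes can be compared per length. The library totals behind the FPKM were 14513136 to 18632382 fragments, as worked out from the steps between FPKM values. Summed levels of marker lists of other tissues, which airway dissection could carry along, are given beside the comparisons. Airway epithelium markers, led by the club cell proteins, summed to 27165 to 50002 FPKM over the 11 libraries. Cartilage markers summed to 0.221 to 43.0 FPKM. The GC content of transcripts went together with the deviation of a library from the gene means, by −0.260 to −0.188 on the log2 scale per 10 GC points in OVA/LPS/Vehicle and 0.0460 to 0.108 in OVA/LPS/GGsTop. In PBS libraries 1 and 2 this slope was 0.0588 and 0.0472, and in PBS library 3, which stood apart from the rest, it was 0.528. The 6 mRNAs hold 31.9% to 39.9% GC, below the median of 49.9% of the genes tested, so values corrected for GC content are given beside the results that they change.

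The measured values of the 6 genes spanned more than 4 orders of magnitude. This need not be a span of mRNA levels, since the lowest, mt-Atp8, overlaps mt-Atp6. Per library, the level of mt-Co1 was 7644, 13338 and 2839 FPKM in PBS, 26514, 20690, 25119 and 23385 FPKM in OVA/LPS/Vehicle, and 12993, 15083, 9647 and 15102 FPKM in OVA/LPS/GGsTop. For mt-Cytb it was 3911, 6505 and 1686 FPKM in PBS, 12984, 9980, 11922 and 11539 FPKM in OVA/LPS/Vehicle, and 6935, 7824, 5126 and 7854 FPKM in OVA/LPS/GGsTop. Both mRNAs were highest in the OVA/LPS/Vehicle group, whose libraries did not overlap with those of either other group. PBS library 2 was at the level of the OVA/LPS/GGsTop libraries, and PBS library 3 was the lowest of all 11.

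The other complex IV mRNAs were measured far lower. The level of mt-Co2 was 31.6, 44.4 and 15.7 FPKM in PBS, 141, 107, 154 and 290 FPKM in OVA/LPS/Vehicle, and 58.0, 57.1, 56.5 and 65.2 FPKM in OVA/LPS/GGsTop. For mt-Co3 the level was 13.2, 26.6 and 6.43 FPKM in PBS, 72.5, 45.8, 95.9 and 87.85 FPKM in OVA/LPS/Vehicle, and 19.2, 22.6, 12.2 and 20.5 FPKM in OVA/LPS/GGsTop. The 3 groups did not overlap for mt-Co2, with PBS lowest and OVA/LPS/Vehicle highest, whereas PBS and OVA/LPS/GGsTop overlapped for mt-Co3. Library 78 stood out in the OVA/LPS/Vehicle group for mt-Co2 but not for mt-Co3.

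Of the 2 complex V genes, mt-Atp6 was at 7.12, 10.3 and 2.13 FPKM in PBS, 53.9, 32.0, 110 and 59.3 FPKM in OVA/LPS/Vehicle, and 12.3, 13.7, 8.75 and 15.8 FPKM in OVA/LPS/GGsTop. Library 56 was the highest of the OVA/LPS/Vehicle group, and the lowest of that group was still above every library of the others. The gene mt-Atp8 was near the detection limit, with 1, 0 and 0 fragments in PBS, 3, 3, 3 and 8 in OVA/LPS/Vehicle, and 5, 1, 2 and 1 in OVA/LPS/GGsTop. A count of 0 allows up to 3 fragments, which is 0.949 FPKM in PBS library 2 and 0.789 FPKM in PBS library 3. Its levels of 0.92 to 2.35 FPKM in OVA/LPS/Vehicle and 0.33 to 1.63 FPKM in OVA/LPS/GGsTop are thus close to what single fragments give.

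**Figure D1:**
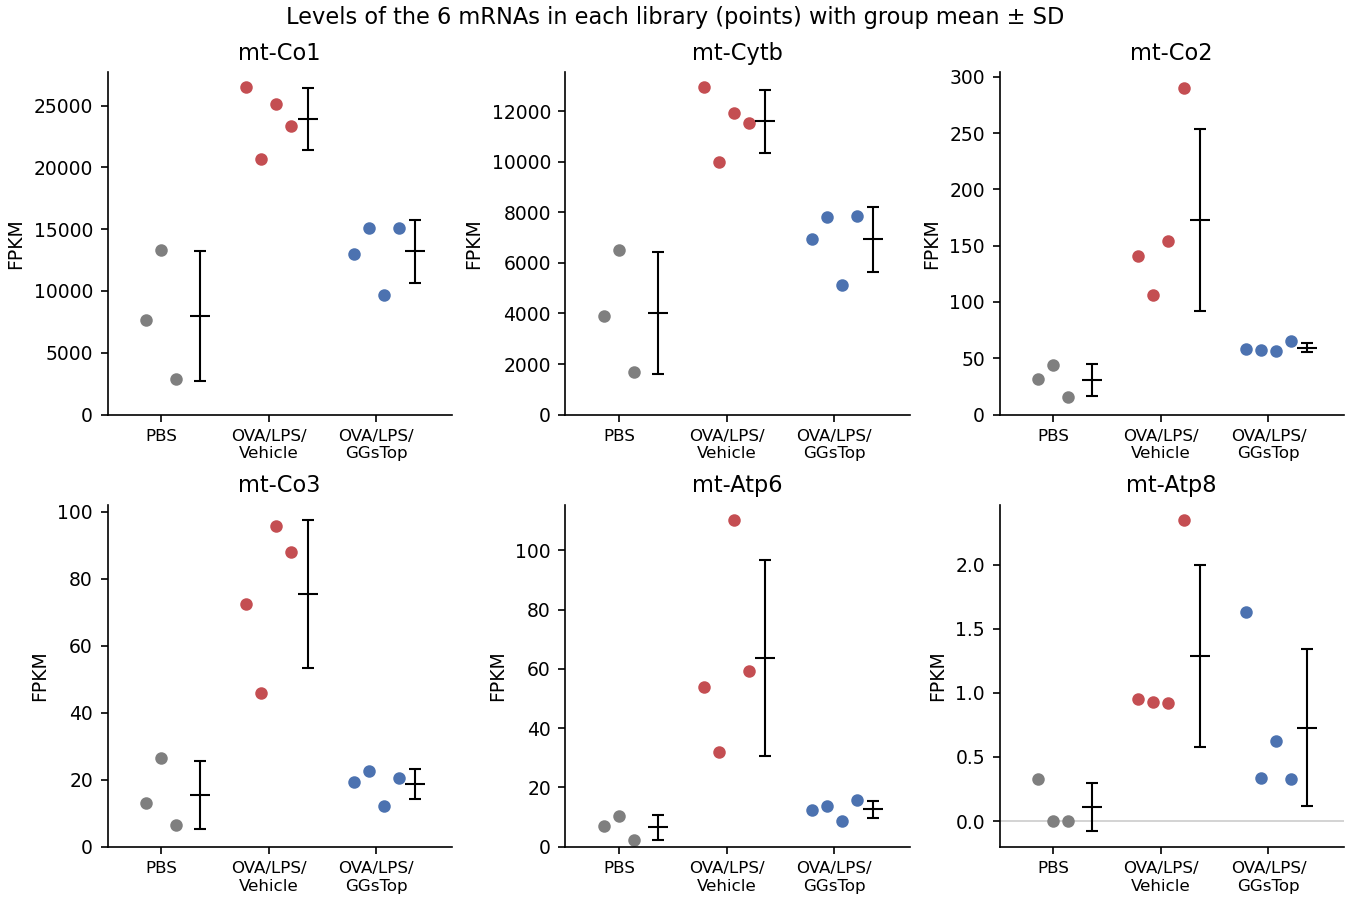
FPKM (linear axis) of the 6 mRNAs in the 3 groups, 1 panel per mRNA, with a point for each library in the order of the labels and the mean ± SD of each group at its right. The OVA/LPS/Vehicle points lie above those of both other groups in every panel except mt-Atp8, where they overlap with OVA/LPS/GGsTop.

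In 10 of the 11 libraries the order of levels per length was mt-Co1, mt-Cytb, mt-Co2, mt-Co3, mt-Atp6 and mt-Atp8, from high to low. In OVA/LPS/Vehicle library 56, mt-Atp6 was above mt-Co3. Averaged over the libraries, mt-Co1 was at 15669 FPKM and mt-Cytb at 7842 FPKM, against 92.8 FPKM for mt-Co2, 38.4 FPKM for mt-Co3, 29.6 FPKM for mt-Atp6 and 0.763 FPKM for mt-Atp8. Within each group the ranges did not overlap for mt-Cytb and mt-Co2 or for mt-Atp6 and mt-Atp8. The ranges of mt-Co1 and mt-Cytb, and those of mt-Co2 and mt-Co3, overlapped in PBS alone, and those of mt-Co3 and mt-Atp6 overlapped in all 3 groups.

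The gap between the 2 high and the 4 low members went together with the nuclear copies, apart from mt-Atp8. Of all windows of 150 bases in each mRNA, 99.4% in mt-Co2, 99.4% in mt-Atp6 and 99.8% in mt-Co3 were found unchanged in an annotated nuclear copy. In mt-Co1 the share was 23.6% and in mt-Cytb it was 0%. Among the 7 complex I mRNAs, mt-Nd3 (97.0% of windows) and mt-Nd4l (98.0%) averaged 3.90 and 3.89 FPKM, while mt-Nd1, mt-Nd2, mt-Nd5 and mt-Nd6 (0% each) averaged 916 to 4929 FPKM. The mRNA mt-Nd4, with 59.2% of windows in a copy, averaged 2925 FPKM. The levels of mt-Co2, mt-Co3 and mt-Atp6 are therefore uncertain as levels of the mRNA, since how reads that map to several places were counted is not given in the sources used here. The expression table lists none of the copies found, so their levels could not be analysed. The part of read mapping in the order of levels was not tested.

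**Figure D2:**
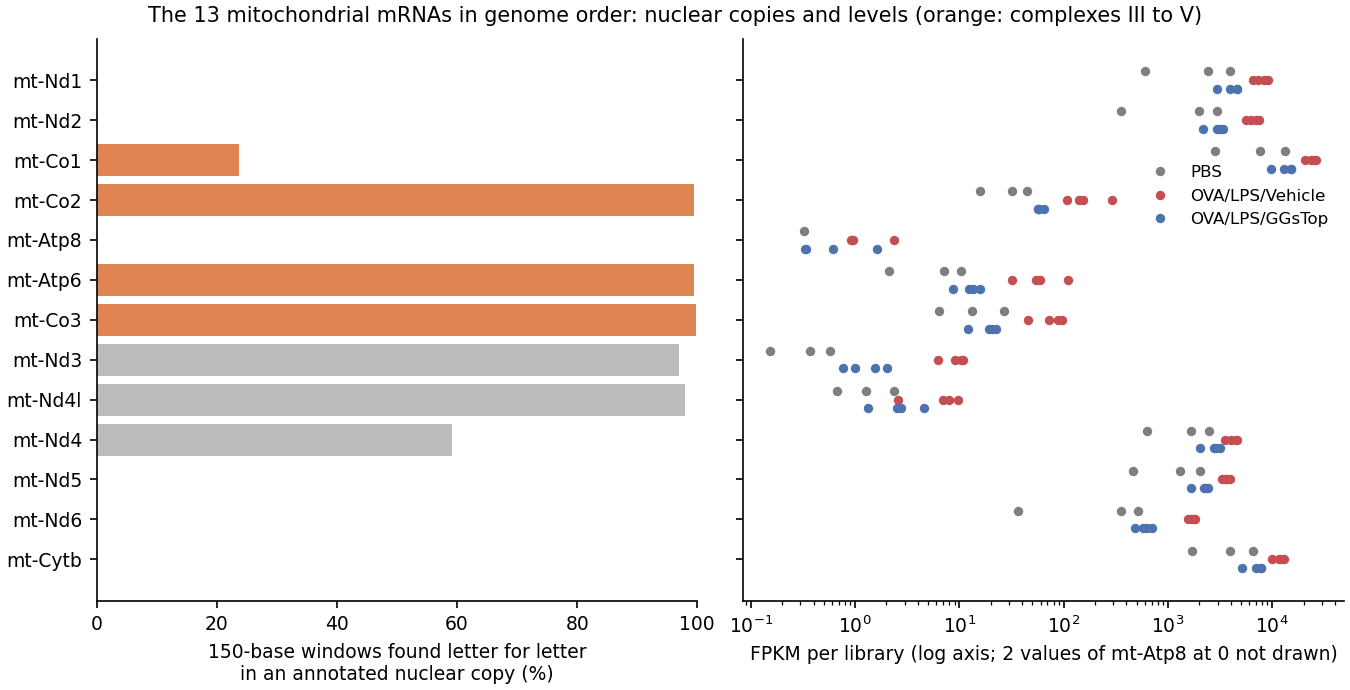
The 13 mitochondrial mRNAs in the order of the genome, with the share of 150-base windows found unchanged in an annotated nuclear copy (%, left) and the FPKM of every library (log axis, right, coloured by group). The 5 mRNAs with at least 97.0% of windows in a copy, 3 of complexes IV and V and 2 of complex I, reach 290 FPKM at most, and mt-Atp8, which has no annotated copy, reaches 2.35 FPKM.

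Together the 6 mRNAs made up 1.42% to 6.31% of the summed FPKM in PBS, 8.74% to 11.6% in OVA/LPS/Vehicle and 4.55% to 6.87% in OVA/LPS/GGsTop. Counted as fragments, they took 0.633% to 2.81%, 4.35% to 5.60% and 2.08% to 3.24% of these library totals. The share of summed FPKM in OVA/LPS/Vehicle was above that in every library of the other groups (two-sided exact permutation test, p = 0.0286 against OVA/LPS/GGsTop and p = 0.0571 against PBS). These are the smallest p-values that 4 libraries against 4 and 3 against 4 can give. Between OVA/LPS/GGsTop and PBS the ranges overlapped (exact p = 0.171). Nearly all of this sum is mt-Co1 and mt-Cytb. In bulk tissue, fewer cells rich in mitochondria and less mitochondrial RNA per cell cannot be told apart.

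The first comparison sets OVA/LPS/Vehicle airway against PBS airway. Ovalbumin and LPS cannot be told apart here from the alum and the intratracheal vehicle, which only the OVA/LPS/Vehicle mice of these 2 groups had. All 6 were higher in OVA/LPS/Vehicle than in PBS airway. The level of mt-Atp6, the proton channel subunit of ATP synthase, was 6.52 ± 4.13 FPKM in PBS and 63.8 ± 33.0 FPKM in OVA/LPS/Vehicle (SD, n = 3 and 4; log2 fold change 3.16, SE 0.44, limma adjusted p = 0.00337). For the complex IV subunits, mt-Co2 rose by 2.48 on the log2 scale (SE 0.35, limma adjusted p = 0.00337), mt-Co3 by 2.37 (SE 0.39, adjusted p = 0.00366) and mt-Co1, the catalytic subunit, by 1.85 (SE 0.46, adjusted p = 0.0121). The increase of mt-Cytb was 1.72 (SE 0.40, limma adjusted p = 0.00916), from 4034 ± 2412 to 11606 ± 1245 FPKM (SD, n = 3 and 4). For mt-Atp8 the fitted value was 1.01 (SE 0.27, limma adjusted p = 0.0145), which rests on 17 fragments in 4 libraries against 1 fragment in 3. Per fragment of the library totals behind the FPKM, the ratio of these fragments was 13.1. Its exact 95% interval of 2.05 to 546 covers counting error only.

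Fold changes are on the scale of log2(FPKM + 1), which understates the change of the low members, above all of mt-Atp8. Across the 14004 genes tested, 15.9% were called higher and 22.1% lower in this comparison, against 6 and 0 of the 6 members. The median log2 fold change was 2.11 over the members and −0.01 over all genes tested. For 5 members every OVA/LPS/Vehicle library was above every PBS library, which held for 18.7% of the genes tested. The values of mt-Atp8 had the same order, but the limit of 0.949 FPKM for PBS library 2 is above the 0.930 and 0.922 FPKM of OVA/LPS/Vehicle libraries 34 and 56. Without PBS library 3, 4 of the 6 remained called, since mt-Co1 (log2 fold change 1.24, adjusted p = 0.0522) and mt-Atp8 (0.95, adjusted p = 0.0587) no longer passed limma's threshold. After correction for GC content 5 of 6 were called, with mt-Atp8 at 0.31 (limma adjusted p = 0.416).

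Markers of several tissues differed between these groups. Heart muscle markers summed to 9.03 to 1338 FPKM in PBS and 650 to 1105 FPKM in OVA/LPS/Vehicle, with 2 of 6 called higher. Brown fat markers (Ucp1, Cidea, Cox8b and Elovl3) summed to 6.92 to 145 FPKM in PBS and 159 to 638 FPKM in OVA/LPS/Vehicle, with no overlap and 1 of 4 called higher. Skeletal muscle markers summed to 4.99 to 58.4 and 40.5 to 115 FPKM, and white fat markers to 24.6 to 243 and 128 to 269 FPKM. Muscle and brown fat are rich in mitochondria, and the part of these tissues in the result was not tested. No defining marker of heart muscle, brown fat or white fat was at 0 throughout either group. Airway epithelium markers, which included 3 of 6 called higher, summed to 27165 to 38312 FPKM in PBS and 32650 to 50002 FPKM in OVA/LPS/Vehicle. Alveolar epithelium markers went the other way without overlap, from 9681 to 15453 FPKM in PBS to 4870 to 8073 FPKM in OVA/LPS/Vehicle, with 2 of 4 called lower. Airway smooth muscle markers summed to 519 to 702 FPKM in PBS and 439 to 475 FPKM in OVA/LPS/Vehicle, with none of the 4 tested called. Thyroid markers were at 0.905 to 0.983 FPKM in PBS and 0.604 to 309 FPKM in OVA/LPS/Vehicle, with 1 of the 2 tested called higher. Leukocyte markers overlapped, at 77.6 to 119 and 60.5 to 100.1 FPKM.

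**Figure D3:**
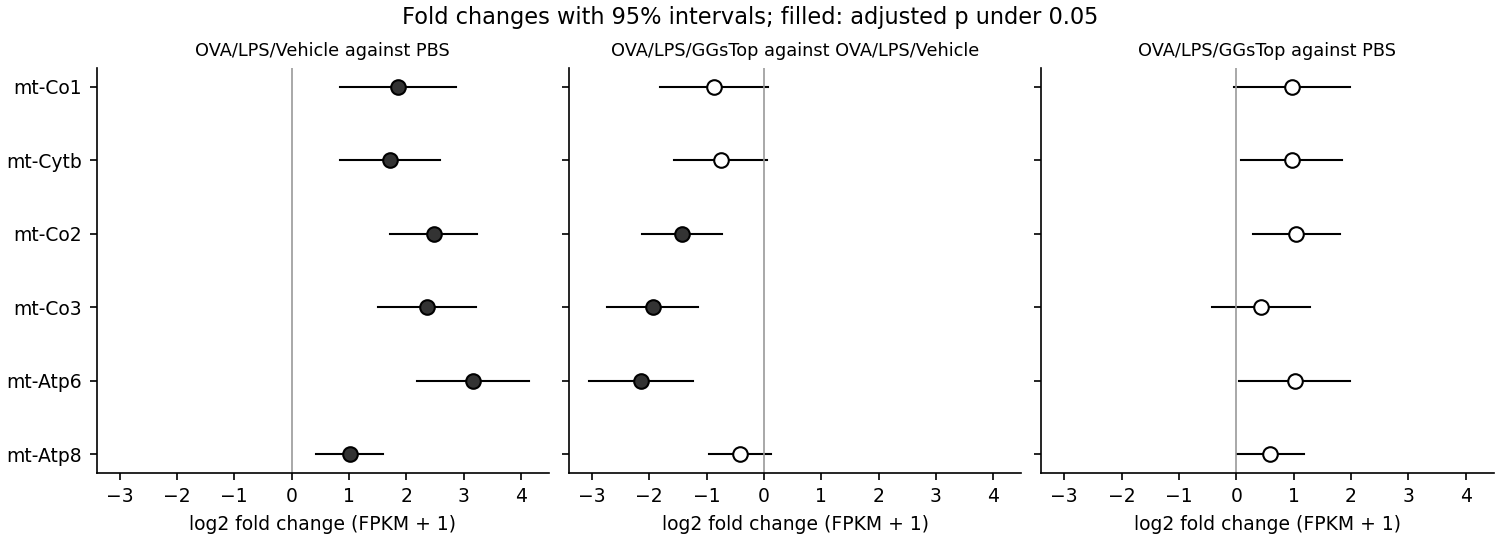
Log2 fold changes of the 6 mRNAs in the 3 comparisons with 95% intervals from limma. Filled points passed an adjusted p under 0.05. All 6 are filled in the panel of OVA/LPS/Vehicle against PBS, 3 in the panel of both treated groups and none in that of OVA/LPS/GGsTop against PBS.

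The second comparison asks what GGsTop changed in airway already exposed to ovalbumin and LPS. It shares the OVA/LPS/Vehicle libraries with the first. The 3 members called lower in OVA/LPS/GGsTop were mt-Atp6, mt-Co3 and mt-Co2, and none was called higher. The level of mt-Atp6 fell from 63.8 ± 33.0 to 12.6 ± 2.95 FPKM (SD, n = 4 each; log2 fold change −2.14, SE 0.41, limma adjusted p = 0.0198). For mt-Co3, a subunit of the cytochrome c oxidase core, the level fell from 75.5 ± 22.1 to 18.6 ± 4.50 FPKM (SD, n = 4 each; log2 fold change −1.94, SE 0.36, limma adjusted p = 0.0198). For mt-Co2, which holds the copper centre that receives electrons from cytochrome c, it fell from 173 ± 80.8 to 59.2 ± 4.04 FPKM (SD, n = 4 each; log2 fold change −1.43, SE 0.32, limma adjusted p = 0.0284). These are the 3 members with an identical nuclear copy.

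The 2 abundant members did not pass the test. For mt-Co1 the mean was 23927 ± 2509 FPKM in OVA/LPS/Vehicle and 13206 ± 2571 FPKM in OVA/LPS/GGsTop (SD, n = 4 each; log2 fold change −0.87, 95% interval −1.81 to 0.06, limma adjusted p = 0.187). For mt-Cytb it was 11606 ± 1245 and 6935 ± 1279 FPKM (SD, n = 4 each; log2 fold change −0.76, 95% interval −1.57 to 0.05, limma adjusted p = 0.187). Their 4 libraries of either group nevertheless did not overlap. The spread shared in the fit includes PBS, where mt-Co1 ran from 2839 to 13338 FPKM. With only the 2 treated groups fitted, 3 members were called, and 5 had an unadjusted limma p under 0.05. Of 13 other settings, mt-Co1 and mt-Cytb were each called in 1, that with array weights. For mt-Atp8 the fitted value was −0.42 (SE 0.25, limma adjusted p = 0.265) and turned to 0.02 after correction for GC content. Its 9 fragments against 17 gave a rate ratio of 0.563, with an exact 95% interval of 0.221 to 1.34.

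In this comparison 1.81% of the genes tested were called lower and 6.9% higher, against 3 and 0 of the 6 members. The median log2 fold change was −1.15 over the members and 0.03 over all genes tested. For 5 of 6 members, all but mt-Atp8, the 4 GGsTop-treated libraries were all below the 4 vehicle libraries, which held for 12.4% of the genes tested. The 3 calls depended on single libraries. None of the 6 was called without OVA/LPS/Vehicle library 56 or 78 or without OVA/LPS/GGsTop library 1 or 3. Over all 8 omissions the log2 fold changes stayed at −2.42 to −1.84 for mt-Atp6, −2.16 to −1.76 for mt-Co3 and −1.63 to −1.15 for mt-Co2, with limma adjusted p-values of up to 0.0718, 0.0740 and 0.0858. With PBS library 3 kept out of the fit as well, which was tried after seeing the data, mt-Atp6, mt-Co3 and mt-Co2 were called in each of the 8 omissions. After correction for GC content, mt-Atp6 (log2 fold change −1.72) and mt-Co3 (−1.57) had an adjusted p of 0.0400 and mt-Co2 (−1.05) no longer passed (limma adjusted p = 0.0642). With libraries also rescaled to the genes that are not mitochondrially encoded, none was called, at log2 fold changes of −1.74 for mt-Atp6 and −1.59 for mt-Co3 (limma adjusted p = 0.0682 each) and −1.07 for mt-Co2 (adjusted p = 0.101).

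Brown fat markers summed to 12.2 to 161 FPKM in OVA/LPS/GGsTop, against 159 to 638 FPKM in OVA/LPS/Vehicle. All 4 were lower (median log2 fold change −1.87) and none was called. Heart muscle markers summed to 388 to 1856 FPKM and overlapped the 650 to 1105 FPKM of OVA/LPS/Vehicle, with 4 of 6 higher and 2 lower in OVA/LPS/GGsTop and none called. Skeletal muscle markers were at 15.4 to 80.1 against 40.5 to 115 FPKM, and white fat markers at 17.6 to 309 against 128 to 269 FPKM. The 4 tested of each list were all lower (median log2 fold changes −0.62 and −1.35), with none called. Thyroid markers were at 0.604 to 309 FPKM in OVA/LPS/Vehicle and 0.321 to 1.52 FPKM in OVA/LPS/GGsTop, which overlap, with 1 of the 2 tested called lower. Alveolar epithelium markers (4201 to 11332 against 4870 to 8073 FPKM) and airway smooth muscle markers (417 to 1038 against 439 to 475 FPKM) overlapped, with none called. Of these, 3 of 4 alveolar markers and all 4 tested smooth muscle markers were higher in OVA/LPS/GGsTop. The part of these tissues in the result was not tested. Markers of airway epithelium (40864 to 47973 FPKM in OVA/LPS/GGsTop) and leukocytes (72.5 to 118 against 60.5 to 100.1 FPKM) overlapped between the groups, with none called.

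**Figure D4:**
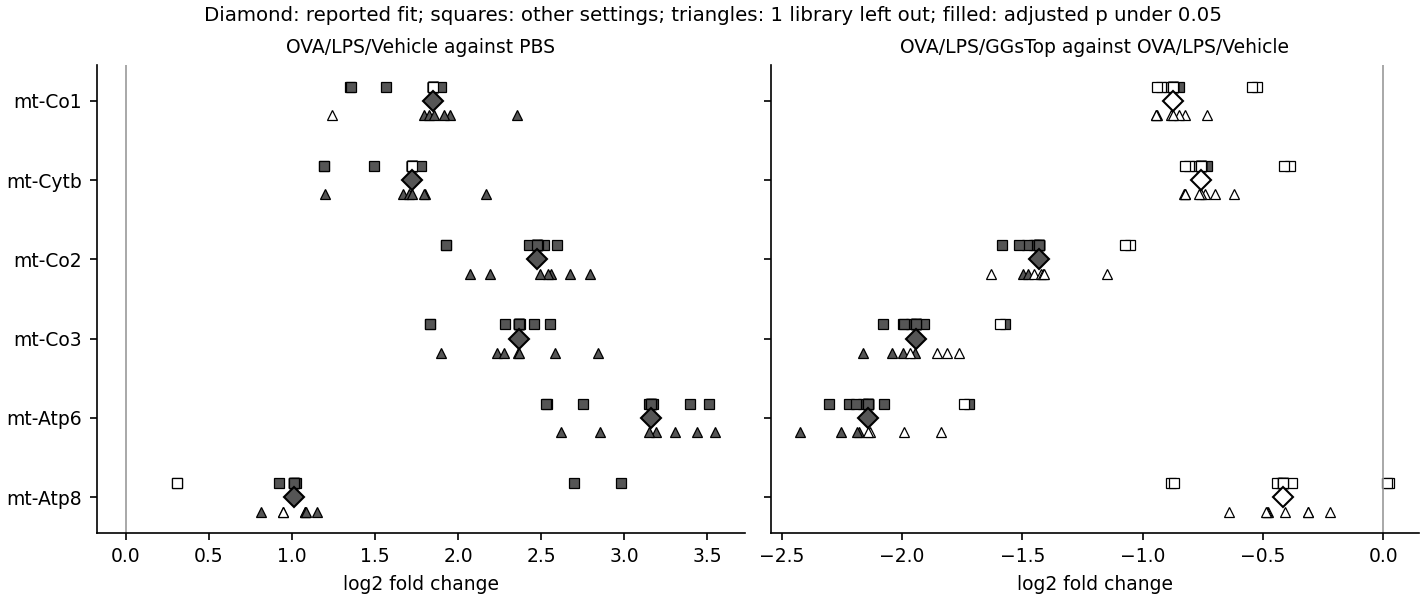
Log2 fold changes of the 6 mRNAs for 2 comparisons in the reported fit (diamonds), under other settings (squares) and with 1 library left out (triangles). Filled symbols passed an adjusted p under 0.05. All values of mt-Co1, mt-Cytb, mt-Co2, mt-Co3 and mt-Atp6 stay on one side of 0, and the open triangles of mt-Co2, mt-Co3 and mt-Atp6 in the panel of the treated groups are the omissions without a call.

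The third comparison sets GGsTop-treated airway against PBS airway. No member passed the threshold with limma, and 4 of 6 had an unadjusted p under 0.05. With limma's voom on the recovered fragments the counts were 0 and 4, after correction for GC content 0 and 2, and without PBS library 3 they were 0 and 0. The log2 fold changes were 1.04 for mt-Co2 (95% interval 0.29 to 1.80, limma adjusted p = 0.126), 0.97 for mt-Cytb (0.09 to 1.84, adjusted p = 0.204) and 0.97 for mt-Co1 (−0.04 to 1.99, adjusted p = 0.260). They were 1.02 for mt-Atp6 (95% interval 0.04 to 1.99, limma adjusted p = 0.223), 0.60 for mt-Atp8 (0.01 to 1.18, adjusted p = 0.234) and 0.43 for mt-Co3 (−0.43 to 1.28, adjusted p = 0.555). These intervals reach from about 0 to well above 1, so the data do not show that treated airway was back at the PBS level. The OVA/LPS/GGsTop libraries lay above every PBS library for mt-Co2, which held for 7.22% of the genes tested. The same order of mt-Atp8 values carries no weight, since 2 OVA/LPS/GGsTop libraries and PBS library 1 each held 1 fragment. No member showed the opposite order, found for 7.54%. Among the genes tested 2.06% were called higher and 0.821% lower. Without PBS library 2, the highest of its group, mt-Cytb and mt-Co2 were called higher (limma adjusted p = 0.0361 and 0.0321). Without PBS library 3, the lowest, the value of mt-Co3 turned to −0.04. Heart muscle markers summed to 9.03 to 1338 FPKM in PBS and 388 to 1856 FPKM in OVA/LPS/GGsTop, and brown fat markers to 6.92 to 145 and 12.2 to 161 FPKM, with none called. Alveolar epithelium markers summed to 9681 to 15453 and 4201 to 11332 FPKM, also with none called. Airway epithelium markers summed to 27165 to 38312 FPKM in PBS and 40864 to 47973 FPKM in OVA/LPS/GGsTop, without overlap. Of these 6 markers, all 6 were higher and 1 was called. The part of these tissues in the values was not tested.

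Ratios within a library do not depend on how libraries were scaled, and they were used to ask whether the members moved in step. They are ratios of measured FPKM. Levels of mRNAs with an identical or nearly identical nuclear copy are uncertain, so the shares need not be shares of mRNA. In the summed FPKM of the 13 mitochondrial mRNAs, mt-Co1 held 39.5% to 42.8% in PBS, 39.7% to 40.3% in OVA/LPS/Vehicle and 39.9% to 41.2% in OVA/LPS/GGsTop. The share of mt-Cytb was 20.2% to 25.4%, 19.0% to 19.8% and 21.1% to 21.4% in the same order of groups. The ratio of mt-Co1 to mt-Cytb was 2.03 to 2.11 in OVA/LPS/Vehicle and 1.87 to 1.93 in OVA/LPS/GGsTop, without overlap, whereas PBS ran from 1.68 to 2.05. Over all libraries the ratio thus ran from 1.68 to 2.11, while the level of mt-Co1 ran from 2839 to 26514 FPKM.

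For mt-Co3 the share of the pool was 0.0683% to 0.0970% in PBS, 0.0891% to 0.153% in OVA/LPS/Vehicle and 0.0505% to 0.0618% in OVA/LPS/GGsTop. The share of mt-Atp6 was 0.0321% to 0.0368%, 0.0622% to 0.176% and 0.0362% to 0.0423%. Both shares were lower in every OVA/LPS/GGsTop than in every OVA/LPS/Vehicle library. The log2 difference of means was −1.11 for mt-Co3, −1.34 for mt-Atp6 and 0.13 for mt-Cytb, each with an exact two-sided permutation p of 0.0286, the smallest that 4 libraries against 4 allow. None of the 16 tests of shares passed after adjustment, the smallest adjusted p being 0.152. None could have passed, since the exact p cannot go below 0.0286 between the treated groups or 0.0571 against PBS. The adjusted values therefore decide nothing about the shares. The share of mt-Co2 overlapped between all groups, at 0.139% to 0.237%, 0.207% to 0.498% and 0.156% to 0.234%. In measured FPKM, mt-Co1 was 1074 to 1334 times mt-Atp6 in PBS, 228 to 647 times in OVA/LPS/Vehicle and 957 to 1104 times in OVA/LPS/GGsTop. These need not be ratios of mRNA, since mt-Atp6 has an identical nuclear copy.

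**Figure D5:**
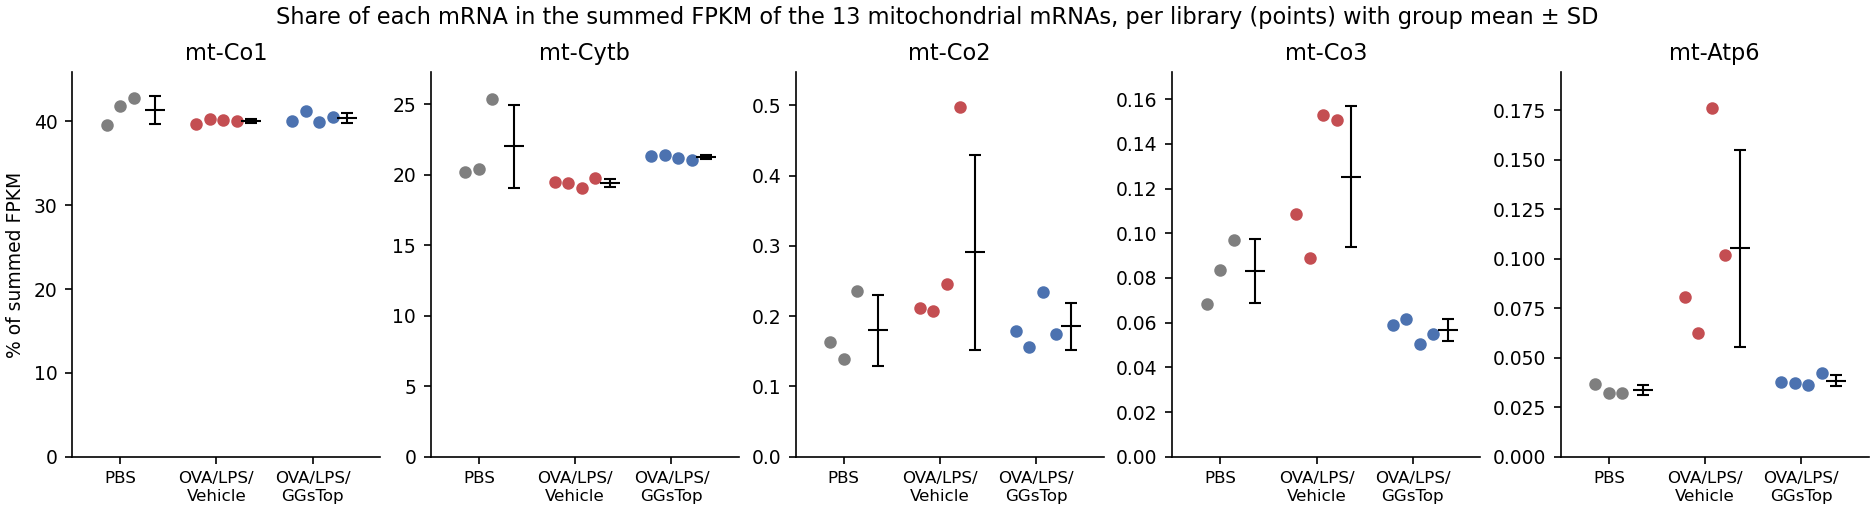
Share (%) of 5 mRNAs in the summed FPKM of the 13 mitochondrial mRNAs, with a point for each library and the mean ± SD of each group. The shares of mt-Co1 stay between 39.5% and 42.8%, while the OVA/LPS/Vehicle points of mt-Co3 and mt-Atp6 lie above all OVA/LPS/GGsTop points. Shares are of measured FPKM and need not be shares of mRNA.

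Across the 11 libraries, which share the 3 groups and their GC slopes, mt-Cytb and mt-Co1 had a Pearson correlation of 0.999 on the log2(FPKM + 1) scale. Between mt-Co3 and mt-Atp6, neighbours in the genome, it was 0.976. The other pairs without mt-Atp8 were at 0.901 to 0.941, and pairs with mt-Atp8 at 0.616 to 0.797. The genes outside mitochondrial DNA whose levels were most like the mean of the 6 members were Rwdd1 (Pearson correlation 0.975), Cpeb2 (0.974), Plk4 (0.973), Cfap36 (0.972) and Ola1 (0.971) over the same 11 libraries. Cpeb2 encodes a protein that binds cytoplasmic polyadenylation elements of mRNAs, Plk4 a kinase of centriole duplication and Ola1 an ATPase. The mean level of Rwdd1 was 7.997 ± 2.18 FPKM in PBS (SD, n = 3), 18.9 ± 0.41 in OVA/LPS/Vehicle and 11.4 ± 1.33 in OVA/LPS/GGsTop (SD, n = 4 each).

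The complex I mRNAs of mitochondrial DNA were also measured. Of all genes tested, 15.9% were called higher in OVA/LPS/Vehicle than in PBS and 1.81% lower in OVA/LPS/GGsTop than in OVA/LPS/Vehicle. All 7 were called higher in OVA/LPS/Vehicle than in PBS, with a median log2 fold change of 2.11. In OVA/LPS/GGsTop against OVA/LPS/Vehicle 1 of 7 was called lower, with a median of −0.99. This was mt-Nd3, from 9.13 ± 2.09 to 1.33 ± 0.56 FPKM (SD, n = 4 each), with 97.0% of its windows in a nuclear copy. The values of mt-Nd4l (98.0% of windows, log2 fold change −0.99, limma adjusted p = 0.0938) and mt-Nd6 (0% of windows, −1.52, adjusted p = 0.128) did not pass. None of the 7 was called between OVA/LPS/GGsTop and PBS, where the median was 1.01. In that comparison 2.06% of all genes tested were called higher and 0.821% lower.

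The nuclear partners of the members had lower medians. For comparison, 15.9% of all genes tested were called higher and 22.1% lower in OVA/LPS/Vehicle than in PBS. Of 9 nuclear subunits of complex III, 5 were called higher and none lower in OVA/LPS/Vehicle than in PBS, with a median log2 fold change of 0.70. Of 17 of complex IV, 7 were higher and 2 lower, with a median of 0.73, and of 18 of complex V, 10 were higher and none lower, with a median of 0.52. Uqcrb, which binds next to cytochrome b, rose from 28.3 ± 14.0 to 66.4 ± 7.55 FPKM (SD, n = 3 and 4; log2 fold change 1.30, limma adjusted p = 0.00638). Among the complex IV genes Cox6b1 rose by 0.73 and Ndufa4 by 0.89, and among those of complex V Atp5mpl rose by 1.25 and Atp5k by 1.10, all with an adjusted p under the threshold. Cox7a1 and Cox8b, the forms of 2 complex IV subunits known from muscle and brown fat, are named after their values were seen, since they had larger fold changes than mt-Co1 and mt-Cytb. Cox7a1 was at 15.9 ± 18.9 FPKM in PBS and 55.6 ± 16.9 FPKM in OVA/LPS/Vehicle (SD, n = 3 and 4; log2 fold change 2.33, limma adjusted p = 0.0277). Cox8b, which is also in the list of brown fat markers, was at 29.2 ± 28.9 and 91.1 ± 45.0 FPKM (SD, n = 3 and 4; log2 fold change 2.16, limma adjusted p = 0.0706). Cox6a2, a muscle form of another complex IV subunit, is also named after its values were seen. It was at 45.9 ± 54.2 and 76.1 ± 16.3 FPKM (SD, n = 3 and 4; log2 fold change 1.41, limma adjusted p = 0.116).

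In OVA/LPS/GGsTop against OVA/LPS/Vehicle none of these nuclear subunits was called in either direction, beside 1.81% of all genes tested called lower and 6.9% higher. The medians were −0.45 for complex III, −0.35 for complex IV and −0.29 for complex V, beside −1.15 for the members. The smallest p in each list belonged to Uqcrb (log2 fold change −0.83, limma adjusted p = 0.0576), Cox6b1 (−0.55, adjusted p = 0.0730) and Atp5mpl (−0.78, adjusted p = 0.0505). The largest fold changes were again those of Cox8b (−1.59, limma adjusted p = 0.204) and Cox7a1 (−1.07, adjusted p = 0.294). Next in order of p were Uqcrh (−0.45) and Uqcrq (−0.55), Cox5b (−0.63) and Ndufa4 (−0.59), and Atp5k (−0.65) and Atp5l (−0.41). Cox6a2, the muscle form named above, was at 0.01 (limma adjusted p = 0.993) and did not move with Cox8b and Cox7a1. None of the nuclear subunits was called between OVA/LPS/GGsTop and PBS, beside 2.06% of all genes tested called higher and 0.821% lower.

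Of the 13 genes of mitochondrial DNA transcription and replication, 7 were called higher and 2 lower in OVA/LPS/Vehicle than in PBS. The shares over all genes tested were 15.9% and 22.1%. Between the treated groups, where 6.9% of all genes tested were called higher after GGsTop, 1 of the 13 was called higher. This was Polg, the mitochondrial DNA polymerase, at 5.65 ± 0.75 and 8.48 ± 0.68 FPKM without and with GGsTop (SD, n = 4 each; log2 fold change 0.52, SE 0.12, limma adjusted p = 0.0331). Its level in PBS was 9.45 ± 1.91 FPKM (SD, n = 3), so its order over the groups was opposite to that of the members. The values of Polg are not corrected for GC content, and the part of GC content in this order was not tested. Tfam, which packs mitochondrial DNA and starts its transcription, was at 6.91 ± 1.04 FPKM in PBS (SD, n = 3), 8.83 ± 0.62 in OVA/LPS/Vehicle and 6.90 ± 0.52 in OVA/LPS/GGsTop (SD, n = 4 each). It was called higher in OVA/LPS/Vehicle than in PBS (log2 fold change 0.32, limma adjusted p = 0.0392) and did not pass between the treated groups (−0.32, adjusted p = 0.0687). Top1mt, the mitochondrial topoisomerase, was at 0.41 between the treated groups (adjusted p = 0.0845).

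Of the 16 tested genes of mitochondrial RNA processing and stability, 4 were called higher and 3 lower in OVA/LPS/Vehicle than in PBS, and 1 was called lower in OVA/LPS/GGsTop than in OVA/LPS/Vehicle. Among all genes tested, 15.9% were called higher and 22.1% lower in the first comparison, and 1.81% lower in the second. Trmt10c, a subunit of the enzyme that cuts the 5′ ends of mitochondrial tRNAs, was at 4.58 ± 1.24 FPKM in PBS (SD, n = 3), 8.88 ± 0.91 in OVA/LPS/Vehicle and 5.09 ± 0.45 in OVA/LPS/GGsTop (SD, n = 4 each). The log2 fold change was 0.85 (SE 0.15, limma adjusted p = 0.00409) for the first comparison and −0.70 (SE 0.14, adjusted p = 0.0204) for the second. Elac2, which cuts the 3′ ends of the tRNAs, had the opposite signs, at −0.43 (limma adjusted p = 0.0136) and 0.35 (adjusted p = 0.0540). Fastk was at −0.38 (limma adjusted p = 0.0336) and 0.39 (adjusted p = 0.0567). The part of GC content in these opposite signs was not tested. Of 21 tested assembly and translation factors of complexes III to V, 2 were called higher and 1 lower in OVA/LPS/Vehicle than in PBS. None was called between the treated groups, beside 1.81% of all genes tested called lower and 6.9% higher. There, Tmem70, an assembly factor of ATP synthase, was at −0.56 (limma adjusted p = 0.0805), Cox20 at 0.39 and Uqcc1 at −0.26. No gene of these lists was called between OVA/LPS/GGsTop and PBS, where 2.06% of all genes tested were called higher and 0.821% lower.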

How the data were processed

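Poly(A) RNA of airway was sequenced for 4 OVA/LPS/GGsTop libraries, 4 of OVA/LPS/Vehicle and 3 of PBS, grouped by their labels. The authors deposited FPKM, fragments divided by gene length and library total, with no further scaling. The submitters' processing notes name cutadapt 1.15, HISAT2 2.0.5, HTSeq 0.9.1 and the build mm39, without stating how reads with several matches were counted, which bears on members with nuclear copies. The annotation release is not given in the sources used here. With exon lengths of GENCODE M21 (GRCm38), 21449 of 21899 genes (97.9%) had whole fragments in every library within 0.05 of a fragment, the 6 members included. This gave the library totals, and 1 fragment on 1 kb was worth 0.0537 to 0.0689 FPKM. Intervals and limits of counts cover counting error only. Symbols matched for 21795 genes.

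The 14004 genes averaging 0.5 FPKM or more were taken as log2(FPKM + 1) and fitted for all 11 libraries with limma 3.58.1 (R 4.3.3, mean-variance trend), since the authors' DESeq needs counts. Tests were two-sided, with Benjamini-Hochberg adjustment over all of these genes, and calls were made below an adjusted p of 0.05. Shares of the mitochondrial mRNA pool were compared by exact two-sided permutation tests (scipy 1.17.1), adjusted over 16 tests, since the values of mt-Atp8 at 0 gave no log ratio against PBS. Copies were found with BLAST 2.17.0 between annotated transcripts, at 90% identity or more over 100 bases or more. The genes named are the 6 members, the 3 genes of each list with the smallest p in OVA/LPS/GGsTop against OVA/LPS/Vehicle, the copies, and the 5 genes most like the members, and Cox6a2, Cox7a1 and Cox8b outside this rule. For copies the rule asked for a level, and they are named by sequence alone. Not every copy found is reported here. The members and lists were chosen with earlier results of these data known. The fit was tested on simulated data. Alternatives covered the pseudocount, the filter, scaling, variance model, library weights, GC content (spline, 5 degrees of freedom), recovered fragments and each library left out.

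PBS and OVA/LPS/GGsTop share the numbers 1 to 3. Deviations from the group means of libraries with the same number had correlations of 0.367, 0.427 and 0.428. Libraries with different numbers were not compared, so these values cannot show that the numbers are pairs, and the labels do not say so. A replicate block that takes the numbers as pairs was fitted as an alternative only.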

Additional observations from a re-analysis of the deposited data

Results flagged for a closer look

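In each of 24 groups of 4 libraries, formed by a member's FPKM or its share of the mitochondrial mRNA pool, the highest and the lowest library were compared with the rest by Dixon's test, which flags about 1 group in 20 by chance. The test flagged 4. OVA/LPS/GGsTop library 4 had mt-Co2 at 65.2 FPKM, with a fraction of 0.834 of the group's narrow range lying between it and the next library. OVA/LPS/Vehicle library 78 had mt-Atp8 at 2.35 FPKM, which is 8 fragments against 3 in each other library of the group. In the same library mt-Co2 made up 0.498% and mt-Atp8 0.00402% of the summed FPKM of the 13 mitochondrial mRNAs, both the highest of the group. Without library 78, the log2 fold change of mt-Co2 in OVA/LPS/GGsTop against OVA/LPS/Vehicle was −1.15 in place of −1.43 and no member was called.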

How the results depend on the processing

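Of 369 fold changes of members under alternatives, 337 kept their direction and their side of the threshold, 24 lost a call, 5 gained one and 3 changed sign. Between OVA/LPS/GGsTop and OVA/LPS/Vehicle, 3 members were called in the reported fit, 5 with array weights (mt-Cytb and mt-Co1 added), 2 after GC correction, 0 with GC correction and rescaling to genes not mitochondrially encoded (chosen after seeing the data), and 0 to 3 with 1 library left out. The sign of mt-Atp8 changed to 0.0249 with GC correction and to 0.0169 with the rescaling as well. Its share of the pool ranged from −0.62 to 0.21 on the log2 scale with 1 library left out. For OVA/LPS/Vehicle against PBS the count was 4 to 6 under all alternatives, with 4 when genes were not filtered. For OVA/LPS/GGsTop against PBS it was 0, but 1 with array weights and 0 to 2 with 1 library left out. There, the fold change of mt-Co3 ranged from −0.0449 to 0.901, the share of mt-Cytb from −0.100 to 0.0645 and that of mt-Co2 from −0.10 to 0.28. The replicate block gave 0 calls of members, and 0 with GC correction. It changed no call of a member. Across all genes the block on 6 libraries called 16 lower and 46 higher, and the same 6 libraries without it 3 and 11. The cause of these changes was not tested. With a minimum mean of 1 FPKM mt-Atp8 was not tested. Adding the FPKM of nuclear copies to their members could not be run, since the expression table lists none of the copies found. With 0 to 8 fragments per library, mt-Atp8 cannot show differences of modest size at this depth.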
